A study of Mus musculus with 6 samples.

Results

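The genes described here encode the proteins of the mouse mitochondrial ribosome that carry the systematic names Mrpl (large subunit) and Mrps (small subunit). They were taken by name, as the rows whose gene symbol was Mrpl or Mrps followed by a number and at most 1 of the letters a to c, with a mean of 50 or more normalised counts over the 6 libraries. Of 27179 genes in the deposited table, 78 matched the name pattern and 77 met the mean, 48 of them with large subunit names and 29 with small subunit names. Mrpl36 was the single gene left out, with a mean of 3.28 normalised counts, and the members nearest above the limit were Mrpl23 at 84.1 and Mrps36 at 468. The rule uses the name and the mean over all libraries, and all 77 members passed the filter on low values that left 14777 genes for testing.

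The RNA came from mouse embryonic fibroblasts of genotype Cas9+;E1A;HrasG12V, cells that carry the Cas9 nuclease, the adenoviral oncogene E1A and an activated form of the Hras oncogene. Both groups therefore share the nuclease and both oncogenes. The Zmat3 knockout group had 3 libraries, from cells given the Zmat3 guides 52.6, 51.5 and 54.8 for libraries 1, 2 and 3. The control group had 3 libraries, from cells given the negative control guides EV, SPA and ACOCA in the same order. Guides were delivered by lentivirus, and RNA was taken after selection and 10 days of culture. Zmat3 encodes a zinc finger protein that binds RNA and is induced by p53, and the comparison asks which transcripts differ when it is targeted. Each library had its own guide, so the spread behind each p-value also holds differences between guides. The labels name neither clones nor separate starting cultures, so that spread may be partly technical. Control library 3 is the only library with the guide ACOCA, so effects of this library and of its guide cannot be told apart.

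Mitochondrial ribosomes translate the small set of respiratory chain and ATP synthase proteins encoded in mitochondrial DNA. Their ribosomal RNAs are made inside the organelle, whereas their proteins are encoded by nuclear genes, made in the cytosol and imported. Part of these proteins descend from bacterial ribosomal proteins, and part are found in mitochondrial ribosomes alone. Promoters of nuclear genes for mitochondrial proteins are known for sites of NRF1, YY1 and GABP, a factor of the ETS family.

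Promoter sequences are shown for 6 members, which were chosen by fold change. For each of the 4 searched motifs it is the member with the lowest fold change among those with that motif in the stretch shown. The other 2 are the members with the highest fold changes among those with a promoter window. Their transcripts went against the common pattern over the libraries, and they hold no motif in the stretch shown. Each is the 120 bases before the RefSeq start in GRCm38.p6, plus strand, and capitals mark the motif on either strand. In Mrpl9 the NRF1 motif occurs on both strands in overlapping letters. For Mrpl9, Mrpl14 and Mrpl24 this start lies inside the annotated gene, whose span begins further upstream, and the NRF1 motif of Mrpl9 lies within that span. The positions are chr3:94443216-94443335 for Mrpl9, chr2:130563637-130563756 for Mrps26, chr7:78783011-78783130 for Mrps11, chr4:155802758-155802877 for Mrpl20, chr17:45686229-45686348 for Mrpl14 and chr3:87919424-87919543 for Mrpl24.
Mrpl9 (NRF1): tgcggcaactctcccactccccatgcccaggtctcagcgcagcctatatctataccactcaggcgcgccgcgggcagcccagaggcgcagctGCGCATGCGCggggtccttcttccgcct
Mrps26 (ETS): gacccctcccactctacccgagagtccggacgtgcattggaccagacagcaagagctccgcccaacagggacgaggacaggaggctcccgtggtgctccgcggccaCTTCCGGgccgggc
Mrps11 (YY1): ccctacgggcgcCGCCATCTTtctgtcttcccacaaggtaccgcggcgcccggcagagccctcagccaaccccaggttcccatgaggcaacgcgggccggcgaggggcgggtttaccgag
Mrpl20 (E-box): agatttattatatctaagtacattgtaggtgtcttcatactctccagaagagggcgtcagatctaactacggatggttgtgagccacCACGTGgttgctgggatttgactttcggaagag
Mrpl14 (no motif): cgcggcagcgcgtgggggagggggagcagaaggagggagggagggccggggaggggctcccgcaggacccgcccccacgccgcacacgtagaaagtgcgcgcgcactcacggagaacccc
Mrpl24 (no motif): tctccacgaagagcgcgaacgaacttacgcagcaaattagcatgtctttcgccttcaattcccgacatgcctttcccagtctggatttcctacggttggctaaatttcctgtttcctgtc

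RefSeq promoter windows, from 250 bases before to 50 after a start, were given for 68 of the 77 members, and 3 of these had several windows. The ETS motif CCGGAAG, or CTTCCGG on the other strand, was found in 26 of the 68 members (38.2%), against 18.8% of the other tested genes and 8.86% of all windows. The NRF1 motif GCGCATGCG (CGCATGCGC) was found in 7 members (10.3%), against 3.86% of the other tested genes and 1.75% of all windows. The YY1 motif AAGATGGCG (CGCCATCTT) was also found in 7 members (10.3%), against 3.22% of the other tested genes and 1.40% of all windows. The E-box CACGTG, which reads the same on both strands, was found in 4 members (5.88%), against 11.6% of the other tested genes and 7.15% of all windows. None of the 4 motifs contains another, and 31 of the 68 members held none of them. These matches describe letters in a window and are not measured binding. The printed stretch before Mrps11 reaches into the annotated start of Mrpl46, which lies head to head with it on the other strand, so the pair shares this region.

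The libraries held 69515101, 55383299 and 53253055 reads on genes in the Zmat3 knockout group, and 81027772, 90256118 and 60730974 in the control group. Zmat3 itself had 11421, 4912 and 4960 normalised counts in knockout libraries 1, 2 and 3, against 17169, 15869 and 17434 in the control libraries. Every knockout library thus stood below every control library, and the first knockout library kept 67.9% of the control mean. Limma gave Zmat3 a log2 fold change of -1.36 (SE 0.33, adjusted p = 0.371). The DESeq2 adjusted p was 0.0441 with 6 libraries and 0.208 without control library 3. An exact two-sided permutation test gave p = 0.1, the smallest that 3 libraries against 3 allow. Control library 3 stood apart from the other 5, with a mean correlation of 0.941 to them over the tested genes, where each of the other libraries had 0.969 to 0.975, and with reads on 21067 genes where the other libraries had 16889 to 17530. Of 12 fibroblast markers, 8 passed the filter and Lum was at 0 throughout. Thy1, Col1a2 and Postn had at most 5.42, 14.2 and 11.6 normalised counts in any library. The list summed to 232512 to 261425 in knockout libraries and 218618 to 243851 in control libraries, mostly Vim and Fn1. Col3a1 had 2987, 3512 and 3546 normalised counts in knockout libraries and 2424, 2407 and 198 in control libraries. Of 8 leukocyte markers 2 passed the filter, and their list summed to 7631 to 9640 in knockout libraries and 1265 to 6542 in control libraries. Cd68 made up most of this, with 9236, 8035 and 7160 in knockout libraries and 5352, 6049 and 769 in control libraries, Cd14 had 399 to 485 in the 6 libraries, and Ptprc had at most 8.26. Of 8 epithelial markers 5 passed, Krt5 was at 0, and the list summed to 22604 to 27877 in knockout libraries and 13300 to 31459 in control libraries. Epcam had 22386, 25182 and 19711 in knockout libraries and 24986, 18992 and 3574 in control libraries, while Krt18 had 217, 91.3 and 452 in knockout libraries and 4463, 107 and 8675 in control libraries. Control library 3 was thus the low library for Col3a1, Cd68 and Epcam and the high one for Krt18. Among the other fibroblast markers that passed, it was the lowest for Col1a1, Fn1, Pdgfra, Pdgfrb and Dcn and the highest for Vim and S100a4. Of the other epithelial markers that passed, it was the lowest for Ocln, the highest for Cldn4 and neither for Cdh1. Among neural, endothelial and muscle markers that passed, it was also the lowest for Map2, Syp, Pecam1, Kdr and Des. It was not the lowest for Tubb3, Mbp and Vwf. The part of these markers in the members' values was not tested. Because the members also turn on this library, the main comparisons are given with and without it. In bulk RNA, fewer cells of a kind and less RNA per cell cannot be told apart.

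Transcripts of the mitochondrial ribosomal proteins lay slightly lower in the Zmat3 knockout libraries than in the control libraries, and this came with 1 control library. The median log2 fold change of the 77 members was -0.19, with -0.17 for the large subunit and -0.20 for the small subunit, beside 0.01 for all genes tested. Without control library 3 the members' median was -0.01, with -0.02 for the large and -0.01 for the small subunit, beside 0.01 for all genes. No member passed the test. Limma called 0 of the 77 at an FDR of 0.05 (0% of all genes), edgeR called 0 (0%) and DESeq2 called 0 (0.904%). Without control library 3 limma again called 0 members (0.0338% of all genes). The smallest adjusted p of any member was 0.371 in limma.

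At an unadjusted p under 0.05 limma found 3 members, Mrpl14, Mrpl16 and Mrpl33, which is 3 of 77 beside 13.2% of all genes tested. By the same limit edgeR found 3 members (13.1% of all genes) and DESeq2 found 2 (16.5%), and without control library 3 limma found 4 (14.4%). Without control library 1 the counts were 15 in limma (27.5% of all genes) and 19 in DESeq2 (31.5%). Limma found 0 members without knockout library 1 (6.02%), 2 (6.77%) or 3 (4.9%), and 0 without control library 2 (8.7%). The members' shares were not tested against those of all genes. Fold changes were below 0 for 64 of the 77 members, 40 large and 24 small, beside 48.4% of all genes. Without control library 3 they were below 0 for 40 members, 25 large and 15 small, beside 49.3%. Most members thus shared a small shift in 1 direction, which was present with control library 3 and absent from the median without it.

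**Figure D1:**
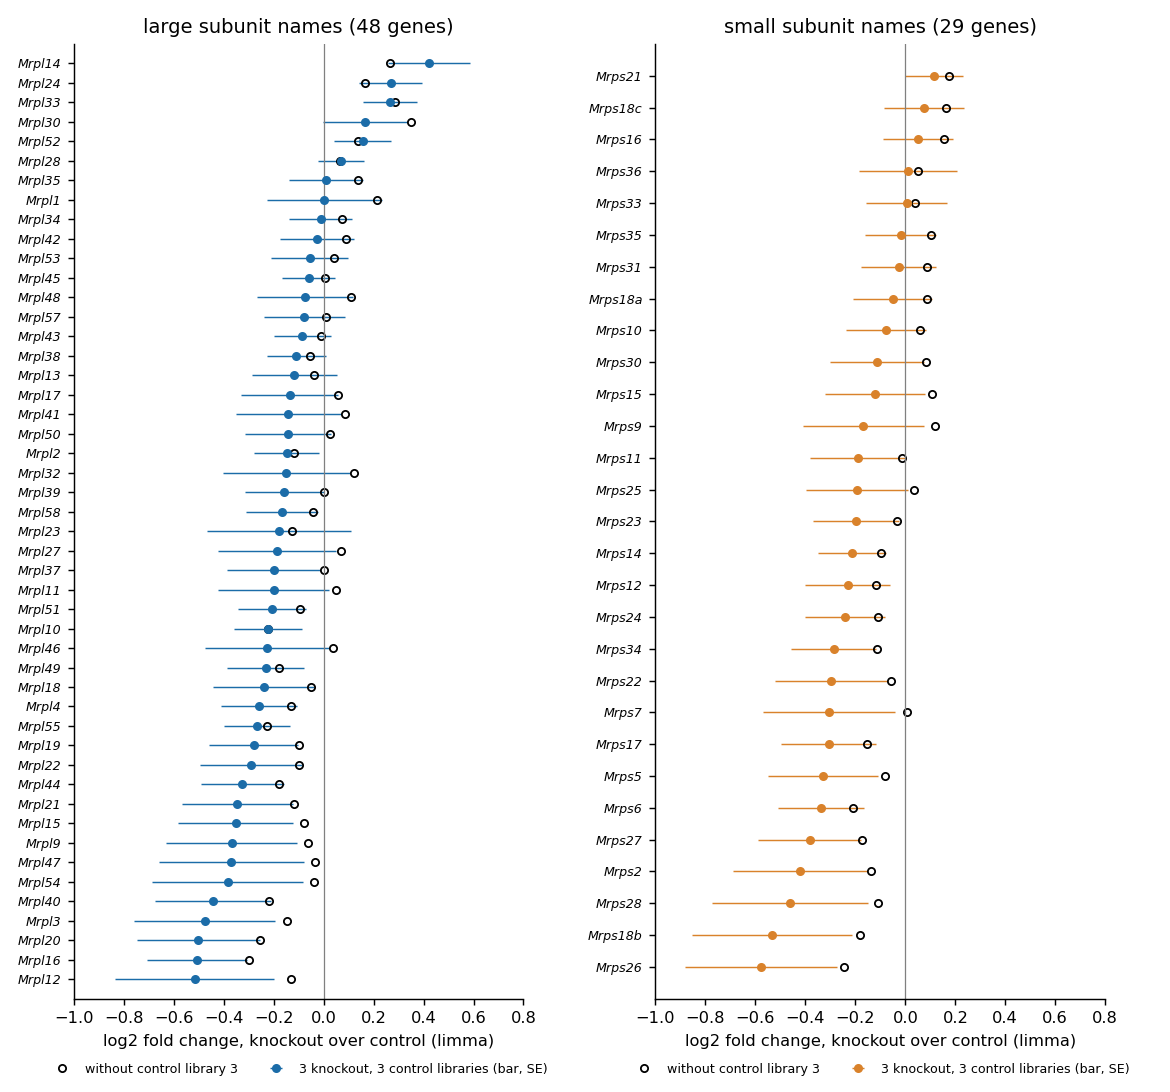
Log2 fold change of each member, Zmat3 knockout over control, from limma on log2(normalised count + 1), for large subunit names (left, blue) and small subunit names (right, orange). Filled points use all 6 libraries with bars of 1 SE, and open circles leave out control library 3: 64 filled points lie below 0, against 40 open circles.

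By library, both subunits showed the same order of levels in control and nearly the same in knockout. As the deviation of log2(normalised count + 1) from the mean of the control libraries, the median large subunit member stood at -0.31, -0.12 and -0.12 in knockout libraries 1, 2 and 3, and at -0.20, -0.09 and 0.33 in control libraries 1, 2 and 3. The median small subunit member stood at -0.31, -0.18 and -0.11 in the knockout libraries and at -0.23, -0.13 and 0.33 in the control libraries. Control library 1 thus lay within the range of the knockout libraries for both subunits. Control library 2 lay within it for the small subunit and just above it for the large subunit, and control library 3 lay above all other libraries.

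Control library 3 was the highest of the 6 libraries for 66 of the 77 members, beside 36.8% of all genes tested. Its level was a median of 1.41 times the mean of control libraries 1 and 2, with a range of 0.724 times for Mrpl14 to 2.22 times for Mrpl12. For all genes tested the median was 0.998 times, with 1 added to both values. The level was at least 1.5 times that mean for 28 members, and the share of all genes at this limit was not counted. Control library 3 was the lowest library for 3 members, Mrpl14, Mrpl24 and Mrpl52, beside 36.6% of all genes. Among the knockout libraries, library 1 was the lowest for 55 members, beside 43.4% of all genes, and it was the lowest of all 6 libraries for 39 members, beside 24.3%. This is also the knockout library with most Zmat3 transcript left. A relation between Zmat3 level and member level was not tested.

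**Figure D2:**
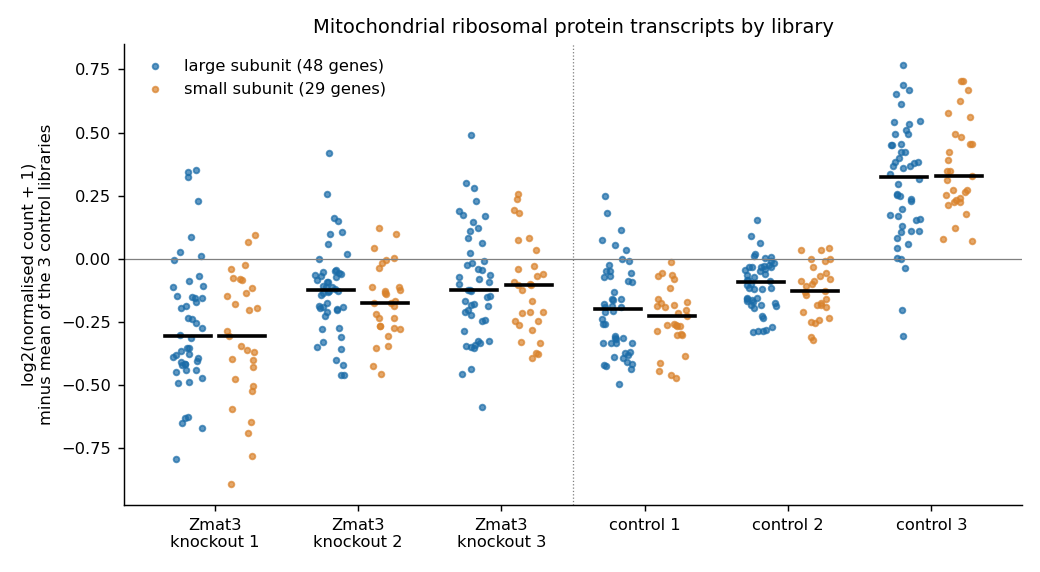
Deviation of each member's log2(normalised count + 1) from its mean in the 3 control libraries, for the 3 Zmat3 knockout libraries and the 3 control libraries. Points are genes and black bars are medians, and the bars of control library 3 lie at 0.33 for both subunits while those of the other 5 libraries lie between -0.31 and -0.09.

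The large and small subunits kept step with each other. The median deviation of large minus small members was 0.012 ± 0.037 (SD, n = 3) in the knockout libraries and 0.018 ± 0.019 (SD, n = 3) in the control libraries, a difference of -0.0064 that is smaller than either spread. The summed normalised counts of large over small members came to 2.16, 2.16 and 2.13 in the knockout libraries and to 2.15, 2.15 and 1.93 in the control libraries. The sums thus had nearly the same ratio in 5 libraries, and control library 3 was the one with relatively more small subunit transcript. All members together took 0.366%, 0.395% and 0.402% of reads in the knockout libraries, and 0.374%, 0.390% and 0.488% in the control libraries.

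Among members of the large subunit, Mrpl12 had the lowest fold change. It encodes the stalk protein that docks translation factors, in the place of bacterial L7/L12, and lies at chr11:120484637-120488754 on the plus strand. Mrpl12 had 3706, 4154 and 4175 normalised counts in the knockout libraries, and 4061, 4745 and 9755 in the control libraries. The groups overlapped, and the high value was that of control library 3. The log2 fold change was -0.52 (SE 0.32, limma adjusted p = 0.420), and -0.13 without that library.

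Mrpl16, a homologue of bacterial L16 that sits close to the tRNA sites and is encoded at chr19:11770415-11774956 on the plus strand, was 1 of the few members whose groups did not overlap. It had 2199, 2222 and 2034 normalised counts in the knockout libraries, against 2452, 2846 and 4095 in the control libraries. The log2 fold change of -0.51 (SE 0.20) had an unadjusted p of 0.0398 and an adjusted p of 0.371 in limma, and became -0.30 (SE 0.11) without control library 3, with the groups still apart. In all, 6 members were lower in every knockout library than in every control library (Mrpl16, Mrpl15, Mrpl55, Mrpl10, Mrps27 and Mrps14), which is 6 of 77 beside 14.4% of all genes. Without control library 3 the count was also 6, beside 17.6%.

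Mrpl20 and Mrpl3 had the next lowest values in this subunit. Mrpl20 is the homologue of bacterial L20, which in Escherichia coli is needed early in assembly of the large subunit. It had 2792, 3616 and 3977 normalised counts in the knockout libraries and 3839, 4349 and 6825 in the control libraries, so the groups overlapped. Mrpl3, whose bacterial counterpart reaches towards the peptidyl transferase centre, had 3392, 4098 and 4245 in the knockout libraries and 4053, 4594 and 8508 in the control libraries. Their log2 fold changes were -0.50 (SE 0.25) and -0.47 (SE 0.28), and -0.25 and -0.15 without control library 3. Mrpl40, a mitochondria-specific protein of the central protuberance, had 1748, 2185 and 2163 in the knockout libraries and 2067, 2671 and 3762 in the control libraries. For these 3 genes the first knockout library was the lowest and the third control library the highest.

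A few large subunit members lay the other way. Mrpl14 is at chr17:45685722-45698495, Mrpl24 at chr3:87918131-87923450 and Mrpl33 at chr5:31613951-31622644, each on the plus strand. Mrpl14, whose product lies at the face that meets the small subunit and in human cells binds the assembly factor MALSU1, had 3029, 3178 and 3339 normalised counts in the knockout libraries, against 2822, 2477 and 1917 in the control libraries. Every knockout library was higher than every control library, and control library 3 was the lowest. The log2 fold change of 0.42 (SE 0.16) had an unadjusted p of 0.0385 and an adjusted p of 0.371 in limma, and was 0.27 (SE 0.10) without control library 3.

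Mrpl24, a homologue of bacterial L24 at the mouth of the exit tunnel, had 4316, 4117 and 4039 normalised counts in the knockout libraries, against 3732, 3676 and 2994 in the control libraries. Mrpl33, a small protein near the exit site for tRNA, had 4536, 3970 and 4409 in the knockout libraries, against 3437, 3620 and 3683 in the control libraries. Both genes had groups that did not overlap, with log2 fold changes of 0.27 (SE 0.13) and 0.26 (SE 0.11) and a limma adjusted p of 0.372 and 0.371. In Mrpl33 control library 3 lay close to the other control libraries, and the fold change without that library was 0.29. Together with Mrpl28, 4 members were higher in every knockout library than in every control library, beside 13.2% of all genes. Without control library 3 there were 10 such members, beside 17.4%.

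Exons of Mrpl14 share bases with Tmem63b and those of Mrpl24 with Rrnad1, each on the other strand, and exons of Mrpl33 share bases with the unnamed transcript Gm43809 on the same strand. The strand setting of the counting is not given in the sources used here, so reads of these pairs may be split or merged. Across all members, 32 share exon bases with another annotated gene, 8 of them on the same strand and 27 on the other, and 45 share none. Among these 45 the median log2 fold change was -0.15 for the 27 large and -0.14 for the 18 small subunit members.

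Mrpl30 was the member that DESeq2 called when control library 3 was left out, with an adjusted p of 0.0161, higher in knockout. It was 1 of 77 members, beside 5.62% of all genes called and 2.67% called higher. It is the homologue of bacterial L30 and lies at chr1:37890477-37898338 on the plus strand. Mrpl30 had 6209, 5702 and 5974 normalised counts in the knockout libraries, and 4680, 4668 and 6840 in the control libraries. The knockout libraries lay above the first and second control libraries and below the third. With all 6 libraries the DESeq2 adjusted p was 0.731. Limma gave 0.17 (SE 0.17) with all libraries and 0.35 (SE 0.09, adjusted p = 0.235) without control library 3. When control library 1 was left out instead, DESeq2 called 3 members beside 14.9% of all genes. Mrpl14 was called higher (7.23% of all genes), and Mrpl16 and Mrpl40 were called lower (7.71%).

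**Figure D3:**
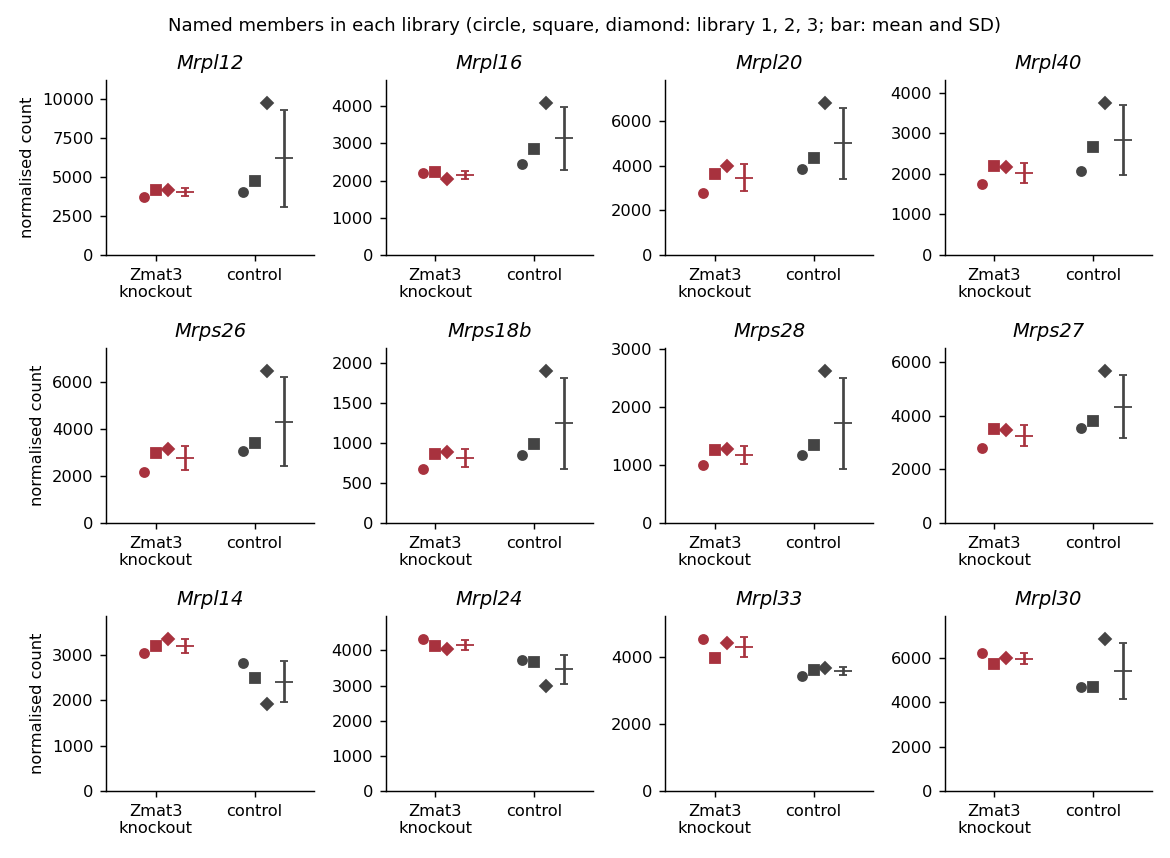
Normalised counts of 12 members in each Zmat3 knockout library (red, left) and each control library (grey, right), with circle, square and diamond for libraries 1, 2 and 3 and bars for the mean and SD. In the upper 8 panels the diamond of control library 3 is the highest point, whereas in Mrpl14 and Mrpl24 it is the lowest.

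Members of the small subunit showed a similar arrangement among their lowest fold changes. Of the 29 members, 0 were higher in every knockout library than in every control library, beside 13.2% of all genes. Without control library 3 there were 4 such members, beside 17.4%. Mrps26, a mitochondria-specific protein at chr2:130563757-130565394 on the plus strand, had the lowest fold change of all members. It had 2197, 2973 and 3149 normalised counts in the knockout libraries, and 3069, 3431 and 6495 in the control libraries. The groups overlapped, since the third knockout library lay above the first control library. The log2 fold change was -0.58 (SE 0.30, limma adjusted p = 0.381), and -0.24 without control library 3.

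Mrps18b is 1 of 3 mitochondrial relatives of bacterial S18. It had 680, 871 and 890 normalised counts in the knockout libraries and 850, 988 and 1906 in the control libraries. Mrps28, the relative of bacterial S1, had 998, 1260 and 1280 in the knockout libraries and 1184, 1350 and 2629 in the control libraries. Mrps2, the homologue of bacterial S2, had 3082, 4106 and 3729 in the knockout libraries and 3477, 4550 and 7146 in the control libraries. In all 3 genes the groups overlapped and control library 3 was the highest. Their log2 fold changes were -0.53, -0.46 and -0.42, and -0.18, -0.11 and -0.14 without that library.

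Mrps27, a mitochondria-specific protein with pentatricopeptide repeats, a fold that binds RNA, had 2798, 3510 and 3475 normalised counts in the knockout libraries, against 3529, 3786 and 5670 in the control libraries. The groups did not overlap, though the second knockout library came close to the first control library. The log2 fold change was -0.38 (SE 0.21, limma adjusted p = 0.386), and -0.17 without control library 3.

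At the other end, the highest fold changes in the small subunit were close to 0. Mrps21 had 3049, 3123 and 3301 normalised counts in the knockout libraries and 2885, 2707 and 3174 in the control libraries, with a log2 fold change of 0.11 (SE 0.11). Mrps18c, the relative that takes the place of bacterial S18, had 1820, 2194 and 2408 in the knockout libraries and 1789, 2016 and 2280 in the control libraries. Mrps16, the homologue of bacterial S16, had 2927, 2939 and 3402 in the knockout libraries and 2811, 2723 and 3444 in the control libraries. In these 3 genes the groups overlapped and the fold changes lay within about 1 SE of 0. Mrps33 had 703, 678 and 604 in the knockout libraries and 628, 657 and 690 in the control libraries, and was nearly level in all 6.

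Ordered by place and origin, the groups of proteins had similar medians. Of the large subunit proteins with bacterial homologues, 29 were tested, 22 had fold changes below 0 and the median was -0.20. Of the mitochondria-specific large subunit proteins, 18 of 19 were below 0, with a median of -0.14. For the small subunit the corresponding values were 13 of 16 below 0 with a median of -0.22 for the bacterial homologues, and 9 of 10 with -0.24 for the mitochondria-specific proteins. Within the large subunit, all 5 stalk proteins (median -0.22), all 8 proteins of the central protuberance (-0.21) and 5 of 6 proteins of the exit tunnel (-0.16) were below 0. None of these groups held a member called by limma or DESeq2 over 6 libraries, and without control library 3 their medians lay between -0.05 and 0.00.

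The names do not always match the place of the protein. Mrps18a and Mrps30 are built into the large subunit in structures of the mammalian mitochondrial ribosome, and Mrps36 is now known as a component of the 2-oxoglutarate dehydrogenase complex. Mrps18a had 2715, 3038 and 3291 normalised counts in the knockout libraries and 2727, 2942 and 3763 in the control libraries. Mrps30 had 4454, 4435 and 4694 in the knockout libraries and 4660, 3914 and 6424 in the control libraries. Mrps36 had 439, 425 and 547 in the knockout libraries and 428, 477 and 490 in the control libraries. None of the 3 had groups that stood apart. With the first pair counted as large and Mrps36 left out, the medians were -0.16 for the large and -0.22 for the small subunit.

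Other members with a role of their own lay inside the common range. Mrpl44, which has the fold of an RNase III enzyme, had 1834, 2175 and 1966 normalised counts in the knockout libraries and 2155, 2347 and 3059 in the control libraries. Mrpl58 is a peptidyl-tRNA hydrolase that became part of the large subunit, and it had 2717, 3008 and 3085 in the knockout libraries and 3004, 3030 and 3908 in the control libraries. Both had overlapping groups, with log2 fold changes of -0.33 (SE 0.17) and -0.17 (SE 0.14).

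Levels of different genes were compared per length, as mean normalised counts over all 6 libraries per kilobase of the median protein-coding transcript in GENCODE M21. The median level was 2432 for the large subunit and 2091 for the small subunit, beside 854 for the 13227 tested genes with a length. The highest large subunit level was that of Mrpl52 at 8673, followed closely by Mrpl30 at 8578, Mrpl20 at 8569 and Mrpl33 at 8248. The differences among these 4 are smaller than the spread of each over the libraries. Mrpl52, a mitochondria-specific protein, had 3675, 4038 and 4380 normalised counts in the knockout libraries and 3749, 3563 and 3516 in the control libraries.

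The lowest large subunit level was that of Mrpl23 at 122 per kilobase, which encodes the homologue of bacterial L23 at the exit tunnel. Mrpl23 had 82.2, 84.3 and 69.1 normalised counts in the knockout libraries and 101, 72.5 and 95.6 in the control libraries, with overlapping groups. A RefSeq pseudogene, Mrpl23-ps1, bears its name, and how reads that fit both copies were counted is not stated. Mrpl48, Mrps36 and Mrpl27 have named pseudogenes as well. In the small subunit the highest level was that of Mrps21 at 6808 and the lowest that of Mrps25 at 496 per kilobase. Mrps25 had 2748, 2927 and 2639 normalised counts in the knockout libraries and 2630, 2786 and 4338 in the control libraries, and its low level per length goes with an annotated transcript of 6073 bases. For 5 members, Mrps26 among them, the GENCODE transcript is longer than the whole RefSeq gene, so their levels per length depend on the annotation.

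**Figure D4:**
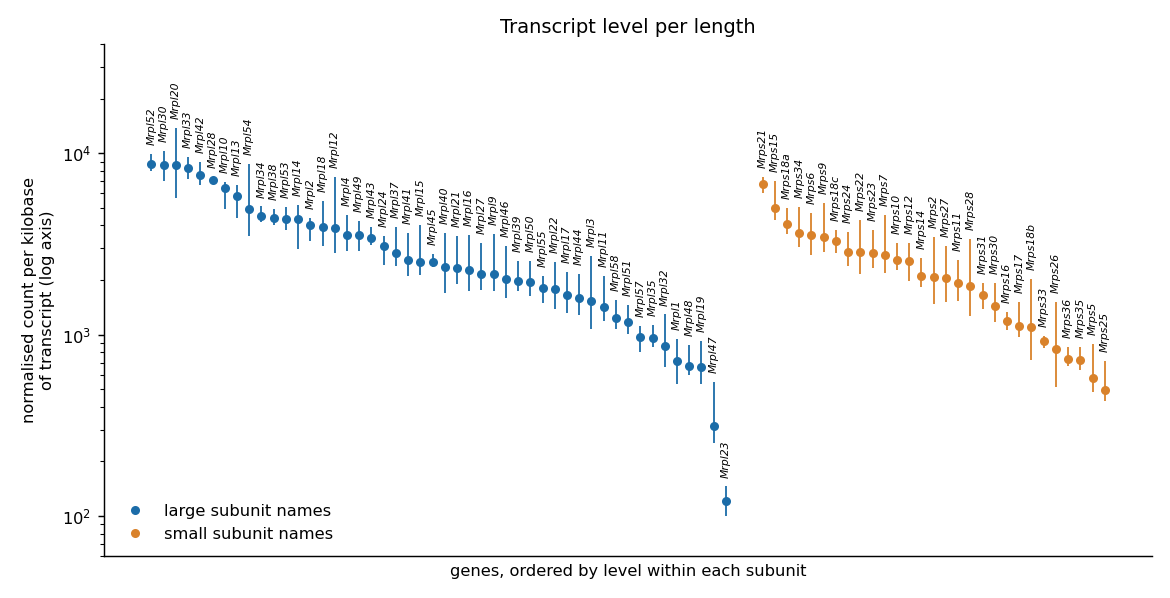
Mean normalised count per kilobase of transcript for each member on a log axis, ordered from high to low within the large subunit (blue) and the small subunit (orange), with lines from the lowest to the highest of the 6 libraries. The large subunit runs from Mrpl52 at 8673 to Mrpl23 at 122, and the small subunit from Mrps21 at 6808 to Mrps25 at 496.

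Proteins of the same ribosome that carry other names were read beside the members. Of 5 such genes, 4 had fold changes below 0, and the median was -0.11, or -0.06 when control library 3 was left out. Ptcd3, a pentatricopeptide repeat protein of the small subunit, had 4403, 6265 and 6610 normalised counts in the knockout libraries and 5952, 8880 and 13275 in the control libraries, with overlapping groups and a log2 fold change of -0.65 (SE 0.31). Gadd45gip1, a large subunit protein, had 2251, 3043 and 2967 in the knockout libraries, against 3057, 3351 and 5015 in the control libraries, which did not overlap. Dap3, Aurkaip1 and Chchd1, all in the small subunit, had log2 fold changes of -0.10, -0.11 and 0.11. Limma and DESeq2 called none of these genes over 6 libraries.

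Other genes of the pathway had medians on the same side of 0 as the members. Fold changes were below 0 for 10 of 13 mitochondrial translation factors (median -0.25), 17 of 22 mitoribosome assembly factors (-0.17) and 14 of 17 mitochondrial aminoacyl-tRNA synthetases (-0.19). They were below 0 for 13 of 19 genes of mitochondrial DNA and RNA upkeep (-0.19), 10 of 15 regulators of mitochondrial biogenesis (-0.21), 20 of 26 genes of protein import (-0.21) and 12 of 13 mitochondrial chaperones and proteases (-0.33). Neither limma nor DESeq2 called a gene of these lists over 6 libraries. DESeq2 called 5.62% of all genes without control library 3. In these lists it then called 3 of the 13 chaperones and proteases and 2 genes of DNA and RNA upkeep. It also called 1 each of the synthetases, biogenesis regulators and import genes. The import gene, Tomm7, was higher in knockout, beside 2.67% of all genes called higher, and the others were lower. Without control library 3 the medians ran from -0.18 for the chaperones and proteases to 0.01 for DNA and RNA upkeep.

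Some genes of these lists had groups that did not overlap. Lower in every knockout than in every control library were 4 of 13 translation factors, 4 of 22 assembly factors and 4 of 17 synthetases. So were 4 of 19 DNA and RNA genes, 3 of 15 biogenesis regulators and 6 of 26 import genes. So were 8 of 13 chaperones and proteases, beside 14.4% of all genes. Higher were 3 import genes, 2 DNA and RNA genes, and 1 each of the translation factors, assembly factors, synthetases and biogenesis regulators, beside 13.2%. Tufm, the elongation factor that brings aminoacyl-tRNA to the mitochondrial ribosome, had 1177, 1551 and 1477 normalised counts in the knockout libraries, against 1812, 2011 and 2071 in the control libraries. Its log2 fold change was -0.49 (SE 0.15, limma adjusted p = 0.371), and -0.45 without control library 3. The protease gene Lonp1 had 10257, 11134 and 11464 in the knockout libraries, against 16162, 15054 and 14444 in the control libraries. Its log2 fold change was -0.47 (SE 0.10, limma adjusted p = 0.371), and -0.51 without control library 3, where DESeq2 gave an adjusted p of 7.49e-05. In both genes control library 3 lay near the other control libraries, unlike in most members. It was the highest library for 10 of 13 translation factors and 11 of 13 chaperones and proteases, beside 36.8% of all genes. Hspd1 and Hspa9 were the other chaperones called by DESeq2 without control library 3. In that library they had 2.09 and 1.53 times the mean of control libraries 1 and 2. Gabpa, which encodes the DNA-binding subunit of GABP, had 8584, 8482 and 8566 in the knockout libraries, against 9275, 10373 and 11917 in the control libraries. Its log2 fold change was -0.29 (SE 0.12, limma adjusted p = 0.371). Tomm7 and Timm17b of the import genes and Mterf4 of the assembly factors were higher in every knockout library than in every control library. Their log2 fold changes were 0.32, 0.32 and 0.25 (limma adjusted p = 0.371 for each). The shares of these lists were not tested against those of all genes.

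The mitochondrial messenger RNAs, which these ribosomes translate, had a median near 0. Of 13 such genes, 10 passed the filter and 5 had fold changes below 0, and the median was 0.02, or 0.19 when control library 3 was left out. mt-Co1, a subunit of cytochrome c oxidase, had 705625, 302044 and 387159 normalised counts in the knockout libraries, against 224734, 279550 and 265333 in the control libraries. The groups did not overlap, the first knockout library was the highest, and the log2 fold change was 0.77 (SE 0.31, limma adjusted p = 0.371). These genes took 1.84%, 0.832% and 1.04% of reads in the knockout libraries and 0.715%, 0.90% and 0.925% in the control libraries. The first knockout library, the lowest for most members, thus held the largest share of mitochondrial messages. mt-Co2, mt-Co3 and mt-Atp6 had at most 25.3 normalised counts in any library, far below mt-Co1, and the cause was not tested. All of them are among the 10 genes behind the median. At this low level mt-Co3 (-0.07) and mt-Atp6 (-0.24) are among the 5 below 0, and mt-Co2 (0.61) is above 0.

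Over the 6 libraries most members had a similar profile. The correlation of a member's log2(normalised count + 1) with the mean of the other members had a median of 0.93, and 44 of the 77 members had 0.9 or more. The share of all genes with such a correlation was not counted. Mrpl24 (-0.91), Mrpl14 (-0.83), Mrpl28, Mrpl33 and Mrpl52 had values below 0. Outside the members, the genes most like their mean profile were Trmu, a mitochondrial tRNA-modifying enzyme, at a Pearson correlation of 0.999, and Wdr36, Txn1, Pdcd6 and Rbm3 at 0.997 or more. Trmu had 536, 664 and 693 normalised counts in the knockout libraries and 586, 693 and 1227 in the control libraries. These correlations are over 6 libraries that include control library 3, which stood apart from the other 5 in most members.

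Members with and without a promoter motif had similar values. The 26 members with the ETS motif had a median log2 fold change of -0.15, and the 42 without it -0.19. The 7 members with the NRF1 motif had -0.22 and the 61 without it -0.18, while the 7 with the YY1 motif had -0.19 and the 61 without it -0.18. The 4 members with an E-box had -0.17 and the 64 without one -0.18. The promoters printed above were chosen by fold change. The low place of Mrpl20 and Mrps26 and the high place of Mrpl14 and Mrpl24 therefore follow from that choice. Mrpl33, which holds the ETS motif, had a log2 fold change of 0.26, beside 0.27 for Mrpl24, which holds none.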

How the data were processed

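Total RNA from 6 fibroblast cultures was made into Illumina libraries, per the labels' protocols. STAR, DESeq2 and the build mm10 are named, per the submitters' processing notes. How reads were counted, on which annotation and with which strand setting is not given in the sources used here. The deposited values are a signal per gene and library, with the form of read counts divided by a size factor per library. All values (100%) were whole multiples of 1 read within 0.001, so whole reads were recovered, at 0.732 to 1.21 normalised counts per read. A check for libraries deposited more than once found none (chi-square per degree of freedom 18.7 to 563.7).

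Because the values are normalised, limma 3.58.1 (trend, robust; R 4.3.3) was run on log2(value + 1), which understates changes of low genes, for 3 knockout against 3 control libraries, unpaired and two-sided. The filter (filterByExpr, minimum 10) kept 14777 genes, and Benjamini-Hochberg adjustment ran over all of them at an FDR of 0.05. Alternatives were edgeR 4.0.16 (quasi-likelihood) and DESeq2 1.42.0 on recovered reads, scaling, pseudocount, filter, threshold, a replicate block and each library left out. The fits were tested on simulated data. Members and lists were chosen with earlier results of these data known. Named members are the 5 lowest and 5 highest fold changes per subunit, those called by any tool, the extremes of level per length, and 8 chosen by role. From each other list up to 3 genes with the smallest unadjusted p were eligible. Gene coordinates and promoters are from RefSeq (GRCm38.p6), and transcript lengths and overlaps are from GENCODE M21.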

Additional observations from a re-analysis of the deposited data

How the results depend on the processing

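Over all genes, limma called 0 with 6 libraries and 0 to 5 with 1 library left out, while DESeq2 on recovered reads called 130. DESeq2 called 61, 25 and 27 genes without knockout library 1, 2 or 3, and 2142, 87 and 720 without control library 1, 2 or 3. Members called were 0 in each setting with all 6 libraries. With 1 library left out they were 0 in limma, and 3 and 1 in DESeq2 without control library 1 and without control library 3. The Zmat3 log2 fold change passed the threshold at -1.24 in DESeq2, and also at -1.77 and -1.23 without knockout library 1 and without control library 1. With 1 library left out it ran from -1.77 to -1.16 in limma and from -1.77 to -1.04 in DESeq2. The large minus small difference between groups was 0.0244 with subunits by structure, and ran from -0.0271 to 0.0317 with 1 library left out. Of the named genes, 8 changed direction in some setting. Mrps18a was 0.025 when scaled by total reads. With 1 library left out, the lowest and highest values were -0.20 and 0.022 for Dap3, -0.021 and 0.16 for Mrps16, -0.15 and 0.085 for Mrps18a, and -0.015 and 0.19 for Mrps18c. They were -0.33 and 0.033 for Mrps25, -0.27 and 0.084 for Mrps30, -0.040 and 0.069 for Mrps33, and -0.10 and 0.079 for Mrps36. The cause of these changes was not tested.

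Scaling by total reads left 56 members below 0, with a median of -0.11 beside 0.09 for all genes. The gap to all genes was narrower in some settings. The members' median was -0.21 beside -0.11 for all genes in DESeq2, and -0.19 beside -0.10 in limma without the filter on low values. In edgeR it was -0.21 beside 0.01. Same-numbered libraries did not deviate together in every pair (correlations 0.264, 0.199 and -0.0172), so the numbers are not treated as pairs. With the replicate block, limma called 0 members, and the medians were -0.17 for the large and -0.20 for the small subunit. With 1 library left out, 0 to 15 members had an unadjusted p under 0.05 in limma, and 0 to 19 in DESeq2. Both counts were highest without control library 1, where the shares of all genes were 27.5% in limma and 31.5% in DESeq2. With 1 library left out the median of the large subunit ran from -0.29 to -0.02 and that of the small subunit from -0.31 to -0.01, both nearest 0 without control library 3. Depth limits Mrpl23 most, since its mean of 84.1 normalised counts is the lowest of the members.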

Other observations

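Mrpl36, left out for its low mean, had 2.71, 4.62 and 4.85 normalised counts in the Zmat3 knockout libraries, and 3.97, 0 and 3.54 in the control libraries. With at most a few reads per library, no difference was detectable at this depth.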
